A study of Homo sapiens with 6 samples.

Results

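The immediate-early response genes examined here are FOS, FOSB, FOSL1, FOSL2, JUN, JUNB, EGR1, EGR3, IER2 and ZFP36. They are 10 of 26989 named genes in RNA-seq of UWB1.289, an established human ovarian carcinoma line without functional BRCA1. The 6 libraries comprise 3 of cells carrying a lentiviral hairpin against HBO1 (shHBO1), the acetyltransferase encoded by KAT7, and 3 of cells carrying a control hairpin (shCTRL). Both groups were transduced in the presence of polybrene at 10 µg/mL and were grown, from 96 h onwards, in puromycin raised between 1 and 3 µg/mL. Both groups are therefore selected populations, and how many hairpins were used is not stated. The genes form a list drawn up by name with earlier results of these data known. It was chosen by the low normalized counts of FOS and EGR1 in both libraries numbered 3 (REP3), which stand apart from REP1 and REP2 in these genes, so differences between REP3 and the other libraries are descriptions without a test.

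FOS and JUN proteins pair through leucine zippers to form AP-1, a transcription factor that binds DNA as a dimer. EGR1 and EGR3 are zinc finger transcription factors. In many cells growth factors and stress switch most of these genes on without new protein synthesis. They act largely through ERK kinases, the serum response factor SRF with its ELK partners, and CREB-related factors. The mRNAs of most of these genes are short-lived, and ZFP36 (tristetraprolin) speeds the decay of mRNAs with AU-rich elements. FOSL1 (FRA-1) and FOSL2 (FRA-2) are FOS relatives that lack the strong transactivation domain of FOS, and FOSL1 is abundant in many invasive carcinoma lines.

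The libraries held 37209917 to 39716678 recovered reads in shHBO1 and 35940400 to 39908703 in shCTRL. KAT7 fell to 1008, 872 and 784 normalized counts in shHBO1, against 3616, 3952 and 3554 in shCTRL (limma adjusted p = 0.00123). The line's epithelial and ovarian markers, among them EPCAM, KRT8 and PAX8, were all detected, although WT1 was listed at 0 in 1 library. Summed over the 10 markers the level was 326486 to 385242 in shHBO1 and 347038 to 405055 in shCTRL. It was also 326486 to 347038 in REP3, against 375578 to 405055 in REP1 and REP2. Among fibroblast markers DCN was listed at 0 throughout, and LUM, PDGFRB and COL3A1 averaged under 10 normalized counts. The 5 fibroblast markers summed to 741 to 903 in shHBO1 and 504 to 846 in shCTRL, most of it COL1A1. Leukocyte markers summed to 543 to 687 in shHBO1 and 541 to 663 in shCTRL, most of it CD68, and CD3E was listed at 0 in 5 of the 6 libraries. Endothelial markers summed to 790.3 to 949 in shHBO1 and 924 to 1319 in shCTRL, most of it CDH5. Any part of these markers in the results was not tested.

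The bases just before the gene start show which motifs these genes share. RefSeq promoter sequences (GRCh38.p14) matched 8 of the 10 genes, and those of FOS, FOSB and EGR1, whose levels moved together across the libraries, are shown with that of JUN, whose level was steady. ZFP36 also moved with them (Pearson r = 0.93 with FOS and 0.96 with EGR1), but its promoter is not shown. Each line gives the 250 bases before the start, with capitals for the CArG box (the core of the serum response element), for TGACG or its complement CGTCA (the core of a cAMP response element) and for TATAAA.
FOS, chr14:75278578-75278827 on the plus strand: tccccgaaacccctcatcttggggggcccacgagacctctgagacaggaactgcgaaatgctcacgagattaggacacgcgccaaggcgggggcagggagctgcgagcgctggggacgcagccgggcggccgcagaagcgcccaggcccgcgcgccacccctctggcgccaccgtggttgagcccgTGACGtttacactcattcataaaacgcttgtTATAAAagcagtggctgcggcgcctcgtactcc
FOSB, chr19:45467746-45467995 on the plus strand: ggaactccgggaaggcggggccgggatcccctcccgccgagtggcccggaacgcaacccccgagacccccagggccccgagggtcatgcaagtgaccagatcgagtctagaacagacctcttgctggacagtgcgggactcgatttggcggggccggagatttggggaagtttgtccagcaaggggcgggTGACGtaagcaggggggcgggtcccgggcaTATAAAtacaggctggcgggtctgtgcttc
EGR1, chr5:138465229-138465478 on the plus strand: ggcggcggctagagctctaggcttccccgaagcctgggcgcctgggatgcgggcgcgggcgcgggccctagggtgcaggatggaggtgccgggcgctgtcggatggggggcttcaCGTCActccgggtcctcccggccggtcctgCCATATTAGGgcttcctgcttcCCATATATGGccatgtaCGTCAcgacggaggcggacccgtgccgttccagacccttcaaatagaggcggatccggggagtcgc
JUN, chr1:58784048-58784297 on the minus strand: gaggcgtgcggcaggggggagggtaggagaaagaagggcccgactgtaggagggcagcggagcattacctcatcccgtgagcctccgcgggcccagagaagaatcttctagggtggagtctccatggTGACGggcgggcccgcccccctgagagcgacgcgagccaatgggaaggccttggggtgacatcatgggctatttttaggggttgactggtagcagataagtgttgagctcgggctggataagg

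EGR1 held 2 CArG boxes, CCATATTAGG from −105 to −96 and CCATATATGG from −83 to −74, counted back from −1 at the base before the RefSeq start. For EGR1, JUNB and IER2 the bases after that start were not found in the GENCODE transcript, so their positions hold for the RefSeq start only. EGR1 is named again here for its CArG boxes. EGR1 was the only one of the 8 genes with a CArG box in this window, and 1.16% of all 35116 promoters in the table held one within the same 250 bases on either strand. Bases further upstream were not searched, so a CArG box of FOS or another gene beyond the window would be missed. TGACG was found in 7 of the 8 genes, all but ZFP36, against 21.2% of all promoters on either strand. FOS and FOSB resembled each other in layout, with TGACG beginning at −64 in FOS and −60 in FOSB and TATAAA at −33 and −30. TATAAA was present in 3 of the 8 genes, FOS, FOSB and JUNB, and in 10.7% of all promoters. The EGR motif GCGNGGGCG was found only in EGR1 itself, from −198 to −190, against 8.41% of all promoters. Neither the AP-1 motif TGAGTCA nor the full cAMP response element TGACGTCA, searched on both strands, was found in any of the 8 windows (4.20% and 1.65% of all promoters). Only exact letters counted as a match, and the JUN window holds the near match TGACATCA. JUN also held TGACG, at −123. These matches are letters in a window and not measured binding sites.

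The first comparison asked whether the immediate-early genes differed between shHBO1 and shCTRL. FOS, FOSB and EGR1 were lower in shHBO1 within each of the 3 replicate numbers, and ZFP36 was lower within numbers 1 and 2. FOSL1 was higher within numbers 1 and 2, whereas JUN was nearly the same in all 6 libraries. Without regard to the replicate number none of the 9 genes tested passed in limma, and none had an unadjusted p under 0.05 (538 of 15182 genes, 3.54%, did). Of all genes tested, 0.00659% passed this test, which is KAT7 alone. With the replicate number as a block, FOS and EGR1 fell, 2 of the 9 tested, against 0.125% of all genes called and 0.0856% called lower. Blocked edgeR (0.125% of genes) and blocked DESeq2 (0.975%, with 2061 genes given no adjusted p) also called FOS and EGR1 and no other of the 9, and unblocked edgeR and DESeq2 called none of them. That call for FOS and EGR1 was known from earlier results of these data and is not independent support. EGR3 averaged under 10 normalized counts and was not tested. The median log2 difference over the 10 genes was −0.12, against 0.00018 over all genes tested. In these bulk libraries fewer cells expressing a gene and less of its RNA per cell cannot be told apart.

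**Figure D1:**
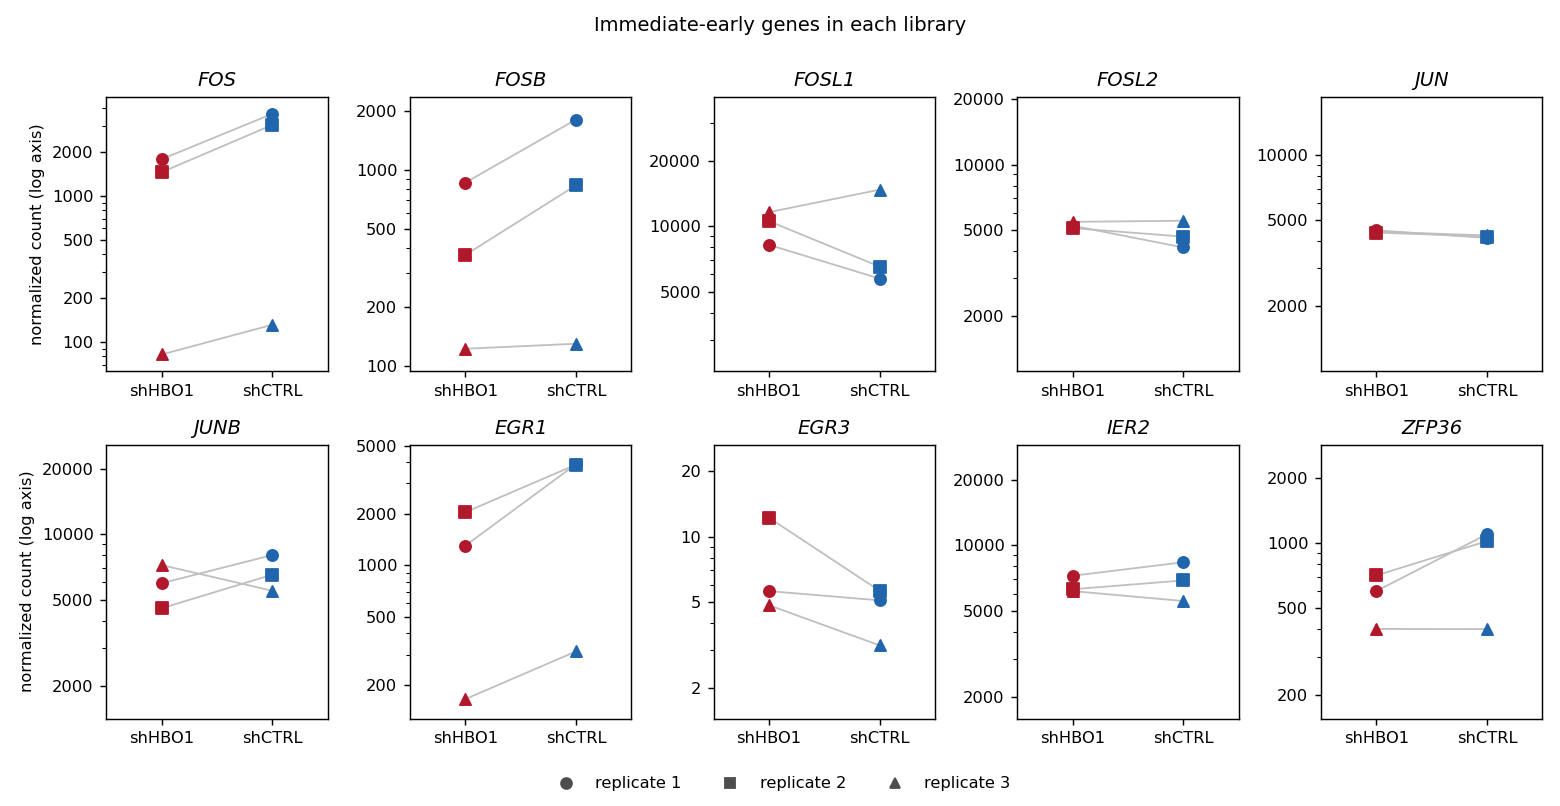
Normalized counts of the 10 immediate-early genes in each library on a log axis, shHBO1 left of shCTRL, with a grey line joining libraries of 1 replicate number. The REP3 triangles of FOS lie at 82.0 in shHBO1 and 131 in shCTRL, far below the other 4 libraries, while all 6 JUN values lie between 4142 and 4492.

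FOS, the founding member of its family, had 1784, 1454 and 82.0 normalized counts in shHBO1 replicates 1, 2 and 3, against 3650.3, 3064 and 131 in the shCTRL replicates. The REP3 values were the lowest of each group, so the groups overlapped although each shHBO1 library lay below its numbered control. FOS was at 48.9%, 47.5% and 62.6% of its control in the 3 pairs. Its log2 difference on the log2(value + 1) scale was −0.93, with a blocked SE of 0.098 and a blocked 95% confidence interval of −1.15 to −0.70 (limma adjusted p = 0.0287 with the block, 0.99994 without it). Without the block the SE was 1.52 and the interval −4.45 to 2.60. The counts behind the REP3 values were 85 reads in shHBO1 (exact Poisson 95% interval 67.9 to 105) and 125 reads in shCTRL (104 to 149). These intervals cover counting error only. They are on reads before division by the size factors, 1.036 in shHBO1 and 0.954 in shCTRL, so their ends are not compared between the groups.

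EGR1, a zinc finger factor that binds GC-rich DNA, had 1299.8, 2039 and 165 normalized counts in shHBO1, against 3892, 3867 and 314 in shCTRL. Again the REP3 library was the lowest of each group, and each shHBO1 library lay below its numbered control, at 33.4%, 52.7% and 52.6% of it. The log2 difference was −1.14, with a blocked SE of 0.13 and a blocked 95% confidence interval of −1.44 to −0.84 (limma adjusted p = 0.0303 with the block, 0.99994 without it). Without the block the SE was 1.18 and the interval −3.89 to 1.60. Both calls ended when the block had only REP3 against the other numbers (limma adjusted p = 0.0625 for both genes), a fit that called 0.0395% of all genes and 0.0198% as lower. They also ended without the REP2 pair (limma adjusted p = 0.346 for FOS and 0.215 for EGR1). They did not end without the REP1 pair (limma adjusted p = 0.0214 and 0.00137) or the REP3 pair (5.1e-09 and 2.7e-07). Each of these pair-omitting fits had only 1 residual degree of freedom. Of 15182 genes they called 1 without REP2, 23 without REP1 and 2131 (14.0%) without REP3. EGR3, a relative of EGR1, was barely detected, at 5.61, 12.2 and 4.82 normalized counts in shHBO1 and 5.08, 5.62 and 3.15 in shCTRL.

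FOSB had 862, 369 and 123 normalized counts in shHBO1, against 1808, 835 and 130.04 in shCTRL. It was at 47.7% and 44.1% of its control in pairs 1 and 2 and at 94.2% in pair 3, and it did not pass (log2 difference −0.78, blocked limma adjusted p = 0.221). ZFP36, the mRNA decay factor, had 602, 711 and 402 normalized counts in shHBO1, against 1102, 1024 and 402 in shCTRL. Its pairs stood at 54.6%, 69.4% and 100.2% of control, with a log2 difference of −0.46 (blocked limma adjusted p = 0.314). FOS, FOSB, EGR1 and ZFP36 were the 4 of 9 tested genes with a blocked unadjusted limma p under 0.05, where 11.3% of all genes had one. This fit had 2 residual degrees of freedom, and its variances are drawn towards those of other genes. Lower values in shHBO1 in all 3 pairs were found for 3 of the 10 genes, FOS, FOSB and EGR1, against 17.1% of all genes tested. Higher values in all 3 pairs were found for JUN and EGR3, 2 of the 10, against 15.3%.

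FOSL1 had 8221, 10579 and 11641 normalized counts in shHBO1, against 5742.5, 6521 and 14786 in shCTRL. Its shHBO1 libraries were at 143% and 162% of control in pairs 1 and 2 and at 78.7% in pair 3, so the direction turned with the replicate number. The log2 difference of 0.29 did not pass (unblocked 95% confidence interval −0.48 to 1.06, limma adjusted p = 0.99994). Its blocked interval was −0.10 to 0.68. FOSL2 had 5221, 5089 and 5442.5 normalized counts in shHBO1, against 4142, 4649.9 and 5503 in shCTRL. The log2 difference of 0.15 did not pass (unblocked interval −0.097 to 0.40, blocked interval −0.019 to 0.32).

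JUN, the main partner of FOS proteins, had 4492, 4386 and 4428 normalized counts in shHBO1, against 4142, 4206 and 4252.5 in shCTRL. None of the 10 genes had all shHBO1 values below all shCTRL values, against 4.43% of all genes tested. JUN alone had them all above, against 4.49%, but by only 0.079 on the log2 scale. Its 95% confidence interval was −0.064 to 0.22 without the block (limma adjusted p = 0.99994) and −0.046 to 0.20 with it. JUN varied by 1.08-fold between its highest and lowest library, where FOS varied by 44.5-fold and EGR1 by 23.6-fold. JUNB had 5954, 4564 and 7218 normalized counts in shHBO1, against 8035, 6521 and 5492 in shCTRL. It was lower in pairs 1 and 2, at 74.1% and 70.0% of control, and higher in pair 3, at 131%. IER2, an immediate-early nuclear protein, had 7248, 6279 and 6157 normalized counts in shHBO1, against 8368, 6898 and 5541 in shCTRL, and its groups overlapped. Neither JUNB (log2 difference −0.18, unblocked interval −0.62 to 0.25) nor IER2 (−0.064, unblocked interval −0.40 to 0.28) passed. Their blocked intervals were −0.54 to 0.17 and −0.24 to 0.11.

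**Figure D2:**
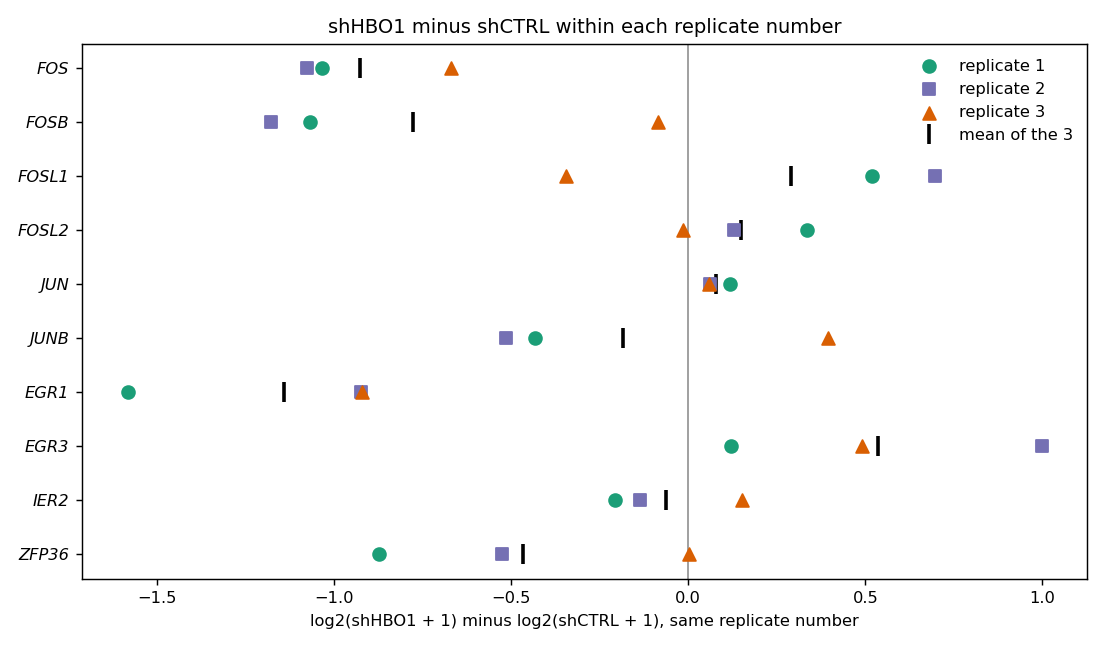
Difference on the log2(value + 1) scale, shHBO1 minus shCTRL, for each gene and replicate number, with a black bar at the mean of the 3. FOS and EGR1 lie left of 0 in all 3 pairs, and the REP3 triangles of JUNB (0.39) and FOSL1 (−0.35) lie on the other side of 0 from replicates 1 and 2.

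Whether the shHBO1 difference itself differed in REP3 was tested as an interaction, the effect in REP3 minus the effect in REP1 and REP2. REP3 is a single library in each group. The spread in this fit therefore came only from REP1 against REP2, with 2 residual degrees of freedom before moderation, and holds no spread among REP3 libraries. No gene of 15182 passed in limma (0%) or in edgeR, and 1302 genes had an unadjusted limma p under 0.05. Such a p was found for 3 of the 9 immediate-early genes, against 8.58% of all genes. FOSL1 had an interaction of −0.95 (SE 0.21, limma adjusted p = 0.516). JUNB had one of 0.87 (SE 0.24, limma adjusted p = 0.553) and ZFP36 one of 0.70 (SE 0.20, limma adjusted p = 0.553). For FOS the interaction was 0.38 (95% confidence interval −0.15 to 0.91) and for EGR1 0.33 (−0.41 to 1.07). Without the REP3 libraries the blocked limma fit called 8 of the 9 genes, all but JUN, with FOS, FOSB, JUNB, EGR1, IER2 and ZFP36 lower and FOSL1 and FOSL2 higher. This fit called 14.0% of all genes tested and 6.88% as lower, with only 2 pairs behind it and a single residual degree of freedom. Without the block the same 4 libraries gave limma adjusted p = 0.0999 for both FOS and EGR1.

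The second comparison set the REP3 library of each group beside REP1 and REP2. Nothing in the labels ties a replicate number to a day or a batch. In both groups FOS, EGR1 and FOSB were several-fold lower in REP3, ZFP36 less so, and FOSL1 was higher. Of the promoters shown, those of FOS and FOSB hold TATAAA, that of EGR1 holds the CArG boxes, and TGACG stands in all 3 and in that of the steady JUN. JUNB, which in REP3 was higher in shHBO1 and lower in shCTRL, also holds TATAAA and TGACG. ZFP36, which was lower in REP3 in both groups, holds neither in the bases searched. Any part of these motifs in the REP3 differences was not tested. FOS in REP3 was at 5.07% of the mean of REP1 and REP2 in shHBO1, and at 3.90% in shCTRL. EGR1 in REP3 was at 9.89% of that mean in shHBO1 and at 8.08% in shCTRL. FOSB in REP3 was at 19.9% in shHBO1 and 9.84% in shCTRL, and ZFP36 at 61.3% and 37.8%. FOSL1 in REP3 was at 124% of the mean of REP1 and REP2 in shHBO1 and at 241% in shCTRL, and FOSL2 at 106% and 125%. JUN stood at 99.8% and 102%, and JUNB at 137% in shHBO1 and 75.5% in shCTRL. IER2 stood at 91.0% in shHBO1 and 72.6% in shCTRL, and the barely detected EGR3 at 54.1% and 58.8%.

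On the log2 scale the REP3 difference, averaged over both groups, was −4.47 for FOS, −3.46 for EGR1, −2.71 for FOSB, −1.05 for ZFP36, −0.29 for IER2, 0.80 for FOSL1 and 0.20 for FOSL2. With a library left out it ran from 0.32 to 1.27 for FOSL1, from 0.078 to 0.33 for FOSL2 and from −0.46 to −0.13 for IER2, the extremes coming without a REP3 library. JUN at 0.012 and JUNB at 0.036 changed sign with the setting, JUN under quantile scaling or without shCTRL replicate 3 and JUNB without shHBO1 replicate 2 or 3. Among the 15182 genes tested, ranked upward from the lowest difference, FOS was at place 2, EGR1 at 6, FOSB at 18 and ZFP36 at 258. Both REP3 values lay below the other 4 in 6 of the 10 genes, FOS, FOSB, EGR1, EGR3, IER2 and ZFP36, where 19.4% of all genes tested did. They lay above in FOSL1 and FOSL2, where 21.6% of all genes did. With a log2 difference of −2 or lower as well, the genes were FOS, FOSB and EGR1, and the share of all genes 0.138%. The REP3 values chose FOS and EGR1, so nothing is read from these counts.

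**Figure D3:**
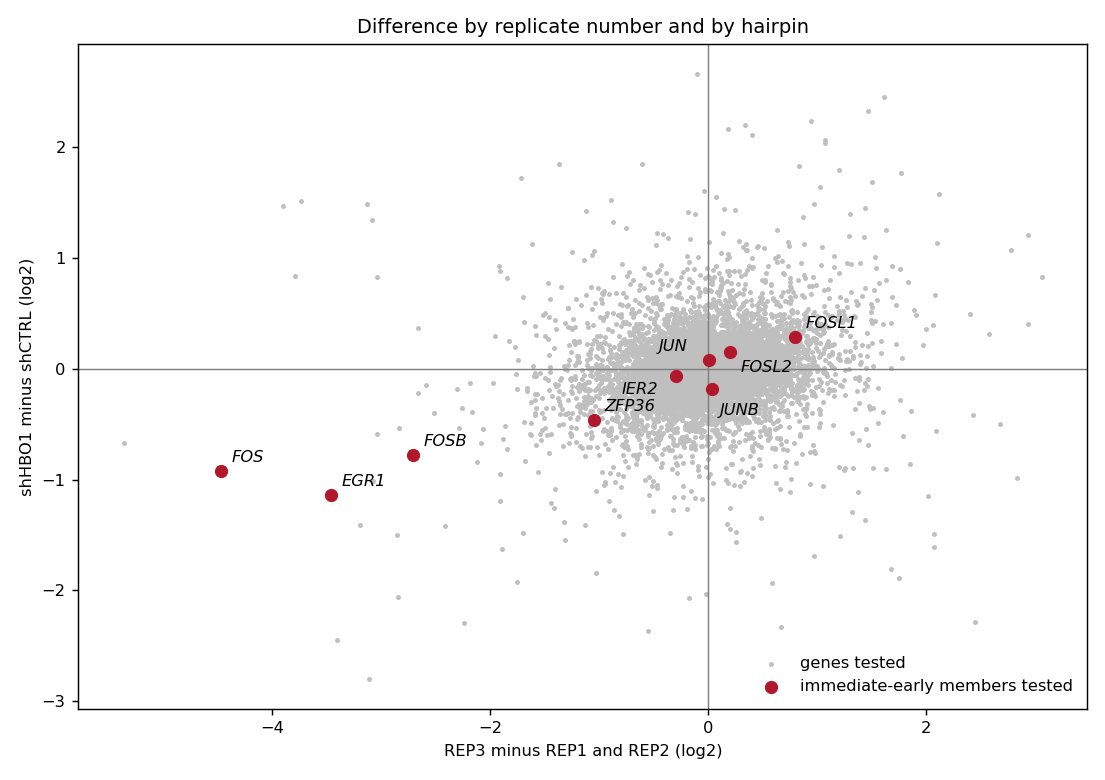
Each of the 15182 genes tested (grey) by its log2 difference between REP3 and the other numbers and by its log2 difference between shHBO1 and shCTRL, with the 9 immediate-early genes tested in red. FOS, EGR1 and FOSB lie at the far left, at −4.47, −3.46 and −2.71, while JUN lies near the origin.

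Levels were compared between genes only per kilobase of the most abundant transcript, with transcript lengths from GENCODE release 29. In shHBO1 FOSL1 was the highest, at 6080 ± 1049 normalized counts per kb (SD, n = 3), and in shCTRL it stood at 5402 ± 3003. The FOSL1 level sums several transcripts over the length of the main coding one, which held 50.3% to 59.9% of the sum. JUNB and IER2 have 1 transcript each. Reads counted for several FOSL1 transcripts would raise its sum, so its place above JUNB and IER2 is not settled. JUNB at 3248 ± 729 and IER2 at 3147 ± 287 in shHBO1 followed and differed by less than their spread. In shCTRL they stood at 3672 ± 703 and 3326 ± 678. JUN came next, with 1253 ± 15.1 in shHBO1 and 1186 ± 15.7 in shCTRL. FOSL2 followed in shHBO1 at 783 ± 26.6, while in shCTRL it averaged 710.3 ± 103, below the means of FOS and EGR1. The per-kb levels of FOS (513 ± 418 in shHBO1 and 1057 ± 874 in shCTRL), EGR1 (372 ± 301 and 857 ± 656), ZFP36 (320.1 ± 87.6 and 472 ± 215) and FOSB (119 ± 99.7 and 245 ± 223) overlapped, with wide spreads. EGR3 was the lowest, with 1.74 ± 0.94 in shHBO1 and 1.06 ± 0.30 in shCTRL. FOS therefore changed its place with the library. In REP3 its per-kb level was 38.01 in shHBO1 and 60.7 in shCTRL, and that of FOSL1 was 6975 and 8859.

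FOSB and FOSL1 were deposited as several transcripts, although the rule by which reads were divided between transcripts is not stated. The FOSB transcript NM_001114171, which encodes the shortened deltaFosB protein, held 69.6%, 5.52% and 1.57% of FOSB in shHBO1 and 34.6%, 25.8% and 4.84% in shCTRL. Its share varied too widely within each group to set the groups apart (exact two-sided permutation p = 0.9). In FOSL1 the main coding transcript NM_005438 held 59.9%, 56.3% and 59.1% in shHBO1, against 50.9%, 50.3% and 54.5% in shCTRL, with no overlap. The non-coding transcript NR_125339 held 23.1%, 26.7% and 25.2% in shHBO1, against 35.9%, 37.5% and 29.3% in shCTRL, also with no overlap. The exact two-sided permutation test gave p = 0.1 for each, the smallest that 3 against 3 libraries allow. Over 27391 transcripts of genes with several, 4.87% had all shHBO1 shares above the shCTRL shares and 4.50% had them all below.

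The other immediate-early genes were read from a list of 37, of which 34 were tested. None passed in limma, with or without the block, and 15 of the 37 log2 differences were below 0. The list's median was 0.028 for shHBO1 minus shCTRL and 0.0067 for REP3 minus REP1 and REP2, against 0.00018 and 0.0032 over all genes tested. In all 3 pairs 5 of the 34 tested genes were lower in shHBO1 and 11 were higher, against 17.1% and 15.3% of all genes tested. DUSP1, a phosphatase that switches off MAP kinases, was lower in shHBO1 in all 3 pairs and lower in REP3. It had 1141, 1149.7 and 371 normalized counts in shHBO1, against 1931, 1742 and 425 in shCTRL, with log2 differences of −0.52 between hairpins and −1.87 between REP3 and the other numbers. CCN2, a matricellular protein, went the other way in REP3. It had 19136, 20009 and 36603 normalized counts in shHBO1, against 14978, 13733 and 32927 in shCTRL, a REP3 difference of 1.05. CCN1, the most abundant gene of the list, had a log2 difference of 0.12 between hairpins and a REP3 difference of 0.0065. Of the 34 genes 9 had both REP3 values below the other 4 libraries and 9 had both above, against 19.4% and 21.6% of all genes tested. Only DUSP1 was lower there by at least 1 on the log2 scale (1.54% of all genes) and only CCN2 higher by as much (1.34%).

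**Figure D4:**
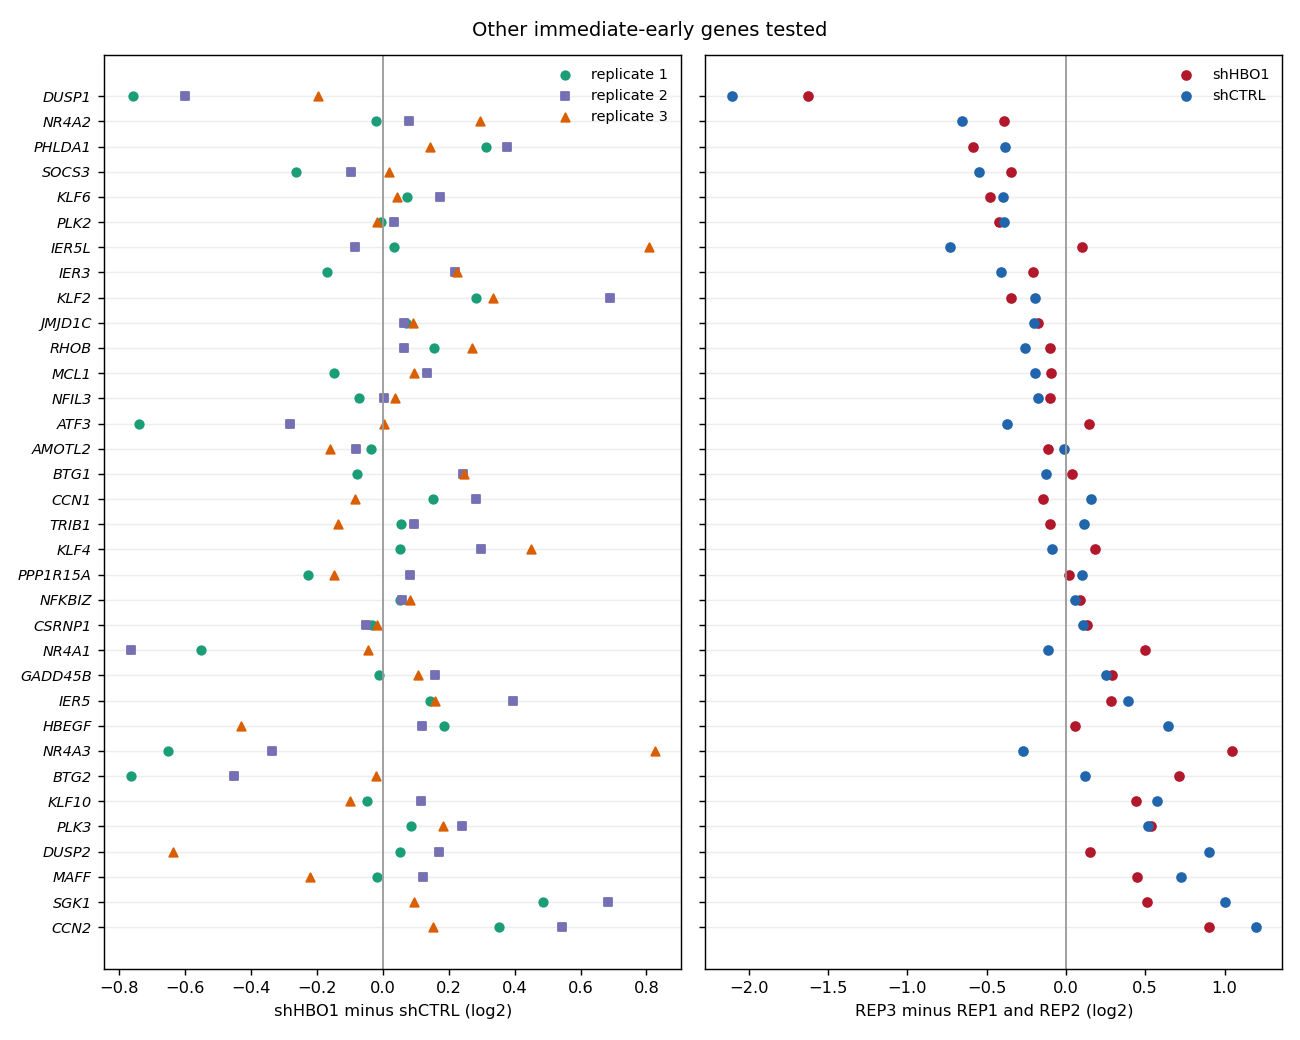
The 34 other immediate-early genes tested, with log2 differences between shHBO1 and shCTRL for each replicate number on the left and between REP3 and the other numbers for each group on the right. DUSP1 stands apart at the top, with REP3 differences of −1.63 in shHBO1 and −2.11 in shCTRL, and CCN2 has the largest positive mean, with 0.90 and 1.199.

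Genes that act above or beside these factors had 0 calls in limma between shHBO1 and shCTRL, with or without the block. These were the 14 tested AP-1 partners and relatives, the 6 genes for SRF and its cofactors, 20 genes of the RAS to ERK cascade, 14 of the JNK and p38 cascades, the EGR corepressors NAB1 and NAB2 and the ZFP36 paralogues ZFP36L1 and ZFP36L2. Their median log2 differences between hairpins ran from −0.023 for the corepressors to 0.16 for the paralogues, against 0.00018 over all genes tested. JUND, the JUN relative most often described as constitutive, had 4209, 2755 and 1812 normalized counts in shHBO1, against 5615, 3948 and 1640.2 in shCTRL. Its log2 difference between REP3 and the other numbers was −1.22, and its log2 difference between hairpins was −0.26. SRF itself had log2 differences of 0.033 between hairpins and 0.22 in REP3, and ELK3, an SRF partner, had 0.024 and 0.27. The log2 difference between hairpins was 0.00085 for NRAS, −0.011 for the adaptor SHC1, −0.046 for ATF4, 0.13 for the JNK gene MAPK8 and −0.26 for the p38 gene MAPK13. It was −0.0019 for NAB1, −0.045 for NAB2, 0.019 for ZFP36L1 and 0.30 for ZFP36L2.

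Target genes of these factors were read from 3 further lists. The median log2 difference between hairpins was 0.074 over the AP-1 targets, 0.14 over the EGR1 targets and −0.013 over the mRNAs bound by ZFP36. The median REP3 difference was 0.42, 0.21 and −0.13 in the same order, against 0.0032 over all genes tested. Of 16 tested AP-1 targets 1 passed with the block, against 0.125% of all genes. VIM, an intermediate filament gene, rose. VIM had 22260.4, 26432 and 23467 normalized counts in shHBO1, against 16844, 17427 and 17043.5 in shCTRL, with no overlap and a log2 difference of 0.49 (limma adjusted p = 0.0389 with the block and 0.580 without it). None of the other 15 passed in limma. Among these targets the barely detected stromelysin gene MMP10 was higher in REP3 by 1.21 and the integrin subunit ITGA2 by 1.04. ITGA2 had 5225, 5749 and 9306 normalized counts in shHBO1, against 3390.3, 3917 and 9035 in shCTRL. Of the 16 genes 7 had both REP3 values above the other 4 libraries and 0 had both below, against 21.6% and 19.4% of all genes tested. HMGA1, a chromatin protein gene and among the most abundant of the list, had a log2 difference between hairpins of 0.043. None of the 12 tested EGR1 targets passed in limma with or without the block. In REP3 the matrix protein gene THBS1 was higher by 1.52, with 7266, 10929 and 20801 normalized counts in shHBO1, against 4120.5, 5467 and 16772 in shCTRL. TNFSF10, the gene of the death ligand TRAIL, was lower there. It had 313, 333 and 165 normalized counts in shHBO1, against 478, 527 and 158 in shCTRL, a REP3 difference of −1.31. The REP3 difference was −1.18 for the stress cytokine gene GDF15. Of the 12 genes 5 had both REP3 values above the other 4 libraries and 4 had both below, beside the same 21.6% and 19.4%. F3, which encodes tissue factor and was the most abundant, had a log2 difference between hairpins of 0.23. Of 13 mRNAs with AU-rich elements that ZFP36 is known to bind, 0 passed in limma with or without the block. CXCL8 had a log2 difference of −0.25 and PLAU of 0.21.

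The genes most like FOS and EGR1 across the 6 libraries were found by the Pearson correlation of log2(value + 1), among 13227 other genes with a mean of at least 50. This is a description only, since the 6 points share the gap between REP3 and the other libraries. Nearest to FOS were LBR (r = 0.9988), SOX12 (0.9985), BABAM2 (0.998), ABCD4 (0.997) and CDK16 (0.996). Nearest to EGR1 were LRRC42 (0.997), INHBB (0.997), APEH (0.996), NIFK-AS1 (0.994) and CEP55 (0.993). Their REP3 differences were far smaller, from −0.54 for SOX12 to −0.23 for LRRC42 on the log2 scale.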

How the data were processed

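RNA-seq signal was deposited by the authors as 1 table of read counts divided by 1 size factor per library, with 58215 RefSeq transcripts and 6 columns. The submitters' processing notes list hg19, DESeq2, SAMtools and Bowtie 1.2.1.1 and give no order. Every value was a whole multiple of its library's step, which gave whole reads for 100% of values at a tolerance of 0.01 read. Accessions were named from RefSeq GRCh38.p14 (57191) or GENCODE 29 (646), 378 without a name were left out (0.0920 to 0.0977% of reads), and rows were summed per gene. A read counted for several transcripts would enter such a sum more than once. Overlapping, antisense and near-identical genes could not be separated.

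Genes averaging 10 or more over the 6 libraries (15182) were tested with limma-trend 3.58.1 (R 4.3.3) on log2(value + 1), which understates changes of low genes, adjusted by Benjamini-Hochberg, with calls at 0.05. Log2 differences are shHBO1 minus shCTRL. The recovered reads were tested with edgeR 4.0.16 and DESeq2 1.42.0 as alternatives. Only the limma fits were also run on simulated counts. Those counts held no shift shared by libraries of 1 replicate number, so they do not show how the fits handle one. Nothing in the labels says that replicates were separate cultures, so p-values refer to these libraries, which differed beyond sampling noise (12.8 to 70.9 chi-square per degree of freedom). The limma fit had 4 residual degrees of freedom without a block and 2 with the replicate block. Its variances are moderated, that is, drawn towards those of other genes. A blocked SE can therefore be smaller than the spread of the gene's own 3 pairs would give.

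Libraries of the same number deviated together from their group means (correlations 0.32, 0.20 and 0.48 for numbers 1, 2 and 3, all over 0.1). A REP3 shift shared by both groups would by itself raise the values of numbers 1 and 2. Correlations between different numbers were not computed. The values therefore do not show that libraries numbered 1, or those numbered 2, belong together. A fit with the number as a block is given where it changed a call. The members, lists and tests were chosen with earlier results of these data known. Besides the 10 members, each list names genes that passed, up to 4 with both REP3 libraries past the others by at least 1 on the log2 scale, and the 2 most abundant, except a few genes that are not reported here. WT1, CD68, CD3E, CDH5 and other markers are named from a marker list.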

Additional observations from a re-analysis of the deposited data

How the results depend on the processing

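The count of genes past the threshold in limma, 1 without a block, was also 1 with other scalings, filters and pseudocounts, with edgeR, for the most abundant transcripts, without the REP3 libraries and with each library left out in turn. With the replicate block it was 19, with a block of 2 levels 6, with blocked edgeR 19, with DESeq2 19 and with blocked DESeq2 148. It was 2131 with the block and without the REP3 libraries, and between 1 and 23 with the block and 1 other pair left out. FOS and EGR1 were called by the blocked limma, edgeR and DESeq2 fits and by no unblocked fit, but not with the block of 2 levels or with the block and without the REP2 pair. The interaction called 0 genes under both other pseudocounts, both other filters, both other scalings and edgeR, but 17 to 43 with 1 REP1 or REP2 library left out, which leaves 1 residual degree of freedom; FOSL1 and JUNB were called without shHBO1 replicate 1 or shCTRL replicate 2. Without a REP3 library the interaction could not be fitted. The block without the REP1 or the REP2 pair, the interaction without a library and the interaction in edgeR were chosen after seeing the data.

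Leaving out 1 library or pair moved the log2 difference of FOS between −2.48 and 0.50, of EGR1 between −2.35 and −0.044, of FOSB between −1.85 and 0.039 and of IER2 between −0.22 and 0.082. The ends for FOS and EGR1 came from unblocked fits without 1 REP3 library, which leave REP3 in only 1 group. Leaving out a pair, with the block, kept FOS between −1.05 and −0.85 and EGR1 between −1.25 and −0.92. Without a change of sign, leaving out 1 library or pair moved ZFP36 between −0.93 and −0.20, JUNB between −0.47 and −0.010, FOSL1 between 0.032 and 0.71 and FOSL2 between 0.053 and 0.26. FOS was above 0 without shHBO1 replicate 3, FOSB and IER2 without shCTRL replicate 1, and IER2 also with the block and without the REP1 pair (0.0081). The JUN interaction was 0.043 under quantile scaling. The REP3 difference of JUN was −0.0050 under quantile scaling and −0.0033 to 0.027 with a library left out, that of JUNB −0.40 to 0.47, and that of EGR3 0.073 for its most abundant transcript. The median REP3 difference of the 10 genes was −0.14 for the most abundant transcripts, against −0.47, because EGR3 then lies above 0 and IER2 and JUN become the middle values. Depth limits EGR3, at under 20 reads a library.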
